A study of Mus musculus with 2 samples.

Results

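Macrophage and leukocyte genes were compared between *Sox21* KO and wild-type incisor tooth germ. The set comprised 10 genes, taken by symbol among the 21243 genes with a reference symbol on the array, and all 14 of their probes were used. *Csf1r* and *Itgam* had 3 probes each, and the other 8 genes had 1 each. The RNA was measured on Agilent SurePrint G3 Mouse GE arrays, 1 for wild-type and 1 for *Sox21* KO. The sample labels give the age as postnatal day 0. In the methods it is postnatal day 1. Wild-type mice were C57BL/6J, and the *Sox21* KO line was a gift. How many animals gave each RNA sample is not given in the sources used here.

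Macrophages settle in tissues before birth, engulf dying cells and debris, and in the jaw lie beside the osteoclasts that make room for the growing tooth. Most depend on the CSF1 receptor, which binds CSF1 and IL34, and on PU.1, the transcription factor encoded by *Spi1*. The other members fall into 4 roles. *Ptprc* encodes CD45, a phosphatase on nearly all leukocytes, *Itgam* encodes the alpha chain of an adhesion receptor of myeloid cells, and *Tyrobp* encodes the adaptor DAP12. *Cd14* encodes the co-receptor for bacterial lipopolysaccharide. *Cd68* and *Lyz2* encode a lysosomal glycoprotein and a lysozyme. *Mrc1* encodes the mannose receptor, and *C1qa* and *C1qb* encode chains of complement C1q, which tags debris for removal.

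What a probe reports depends on the bases printed on the array. Probes of *Tyrobp*, *Ptprc*, *Itgam*, *Lyz2*, *C1qa* and *C1qb* are shown 5′ to 3′, with their deposited mm9 positions. All 60 bases are shown except for the third *Itgam* probe, of which the first 30 are given. For *Tyrobp*, capitals mark the codons of the tyrosine motif through which DAP12 binds SYK, and for *Ptprc* they mark the stop codon that ends the reading frame. For *Itgam*, they mark a run of 10 CA units.
*Tyrobp* (chr7:31200651-31202378, + strand): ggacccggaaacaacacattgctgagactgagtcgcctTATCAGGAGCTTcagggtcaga
*Ptprc* (chr1:139961083-139961142, - strand): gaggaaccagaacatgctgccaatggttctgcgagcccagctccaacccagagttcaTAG
*Itgam*, probe at base 270 of the transcript (chr7:135212140-135212199, + strand): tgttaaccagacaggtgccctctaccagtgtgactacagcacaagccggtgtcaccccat
*Itgam*, probe at base 3410 (chr7:135260275-135260334, + strand): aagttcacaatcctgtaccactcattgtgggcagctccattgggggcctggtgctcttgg
*Itgam*, probe at base 4431 (chr7:135261755-135261814, + strand): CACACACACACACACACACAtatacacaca
*Lyz2* (chr10:116719175-116719234, - strand): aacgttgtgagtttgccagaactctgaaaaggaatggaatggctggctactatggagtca
*C1qa* (chr4:136452409-136452468, - strand): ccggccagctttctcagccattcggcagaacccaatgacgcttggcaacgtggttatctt
*C1qb* (chr4:136436578-136436637, - strand): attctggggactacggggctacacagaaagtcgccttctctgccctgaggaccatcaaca
The *Tyrobp* probe is spread over 1728 bases of the genome, so that it crosses an intron. The last *Itgam* probe has 36.7% G and C, against 55% in the other *Itgam* probes.

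Each processed signal was divided by the 75th percentile of its array, which was 268 for wild-type and 276 for *Sox21* KO, and differences are log2 ratios of *Sox21* KO minus wild-type. The scanner software gives an error for each signal, and the error of a log2 ratio was derived from both. This error covers the measurement of a spot and not differences between animals. Since each genotype has 1 array, no test was possible, and precision is limited by the small number of arrays. For the 432 probes with several spots, spots of the same probe varied in log2 ratio by a median SD of 0.10. A probe counted as measured when the scanner marked it as well above background, which held for 49.7% of spots other than controls in wild-type and 50.4% in *Sox21* KO. For the targeted gene, 1 *Sox21* probe had 1362 in wild-type and 659 in the KO and the other 286 and 103, log2 ratios of -1.09 and -1.51. Both *Sox21* probes were lower in the KO, as its label would have it, but stayed well above background there, and where they lie relative to the deleted part was not checked. All 10 genes of an epithelium list and all 10 of a mesenchyme list were measured on both arrays, so the tissue held both layers of the tooth germ.

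Of the 10 genes, 8 were measured on both arrays, and *Ptprc* and *Lyz2* were well above background on the KO array alone. Of all 21243 genes, 451 were marked on the KO array alone and 274 on the wild-type array alone, and the lowest signal so marked was 19.5 in the KO and 21.3 in wild-type. In *Sox21* KO tooth germ, 7 of the 8 had a higher signal and 1, *Itgam*, a lower one, whereas 52.4% of the 13804 genes measured were higher and 47.6% lower. With both arrays centred on the median spot, 69.3% of all genes were higher, and the 10 genes still gave 7 and 1. Over the 8 genes, log2 ratios had a median of 0.35, against 0.01 over all genes. For 6 genes the higher signal exceeded its scanner error, as it did for 17.9% of all genes, and 1 gene was lower by more than its error, against 16.0%. By the brightest probe of each gene, none of the 8 differed by 1.5-fold or more (0 higher, 0 lower), whereas 3.20% of all genes were higher and 2.98% lower by that much. A 2-fold difference, seen upward in 0.739% and downward in 0.666% of genes, was also absent (0 genes). A dimmer *Csf1r* probe did pass 1.5-fold, at 1.80-fold higher. With these arrays, a change in the number of macrophages and a change in RNA per cell cannot be told apart.

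**Figure D1:**
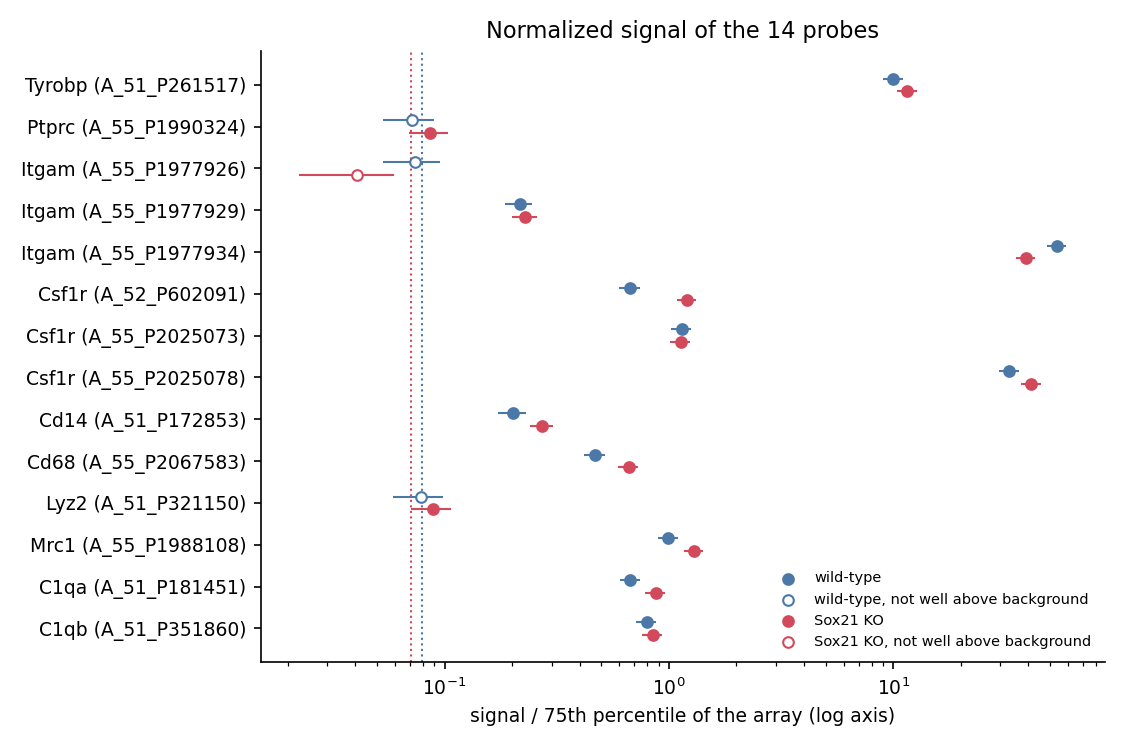
Normalized signal (processed signal divided by the array's 75th percentile, log axis) of all 14 probes on the wild-type (blue) and *Sox21* KO (red) arrays, 1 array each, with bars for the scanner error. Open circles are not well above background, and dotted lines mark the lowest signal so marked on each array. The widest pair among the probes measured on both arrays is that of *Csf1r* at base 2871, with a log2 ratio of 0.84, and *Ptprc*, *Lyz2* and 1 *Itgam* probe sit at the limit.

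*Tyrobp*, the adaptor that pairs with receptors such as TREM2, had a processed signal of 2675 ± 268 (scanner error) in wild-type and 3177 ± 318 in *Sox21* KO tooth germ. The log2 ratio was 0.21, which about equals its error of 0.20. *Ptprc* was near the limit of the array, with 19.2 ± 4.91 in wild-type, where the scanner did not mark it, and 23.9 ± 4.77 in *Sox21* KO. For *Ptprc*, the normalized KO signal was 1.09-fold a wild-type limit. That limit was the lowest wild-type signal so marked, or the probe's own wild-type signal where that was higher. It leaves out the scanner error, and unmarked wild-type signals could lie above the lowest marked one, so the fold is not a minimum. The broadest leukocyte marker of the set thus gave no usable difference.

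The *Itgam* probes did not tell the same story. The probe at base 270 had 19.9 ± 5.59 and 11.3 ± 5.07, not well above background on either array, and gets no ratio. The probe at base 3410 had 57.9 ± 7.88 in wild-type and 63.2 ± 8.09 in *Sox21* KO, a log2 ratio of 0.09 with an error of 0.27. The probe at base 4431, which begins with the CA run, had 14364 ± 1436 and 10733 ± 1073, a log2 ratio of -0.46 with an error of 0.20. Of the *Itgam* probes measured on both arrays, the one with the CA run was lower in *Sox21* KO tooth germ and the other differed by less than its error.

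Probes with such runs behaved alike across the array. With at least 8 CA units, 34 probes were found, and 33 were measured on both arrays. All 33 were lower on the KO array (0 higher), with log2 ratios between -0.76 and -0.24 and a median of -0.48. The bright *Itgam* probe lay within that range, with 15 of these probes above it and 17 below. Probes with at least 8 TG units went the other way, 70 of 71 being higher, with a median of 0.21. Both kinds were bright, with a median wild-type signal of 7166 for CA and 5603 for TG, against 22.0 for the 55574 probes with neither run. Without all these probes, *Itgam* was represented by its probe at base 3410, and all 8 measured genes were higher and 0 lower. Of the 8, 6 exceeded their errors. With the same probes left out, 52.3% of all measured genes were higher. The median stayed at 0.35 because *Itgam* remained among the lower values. The probes with runs were picked out after the *Itgam* values had been seen.

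**Figure D2:**
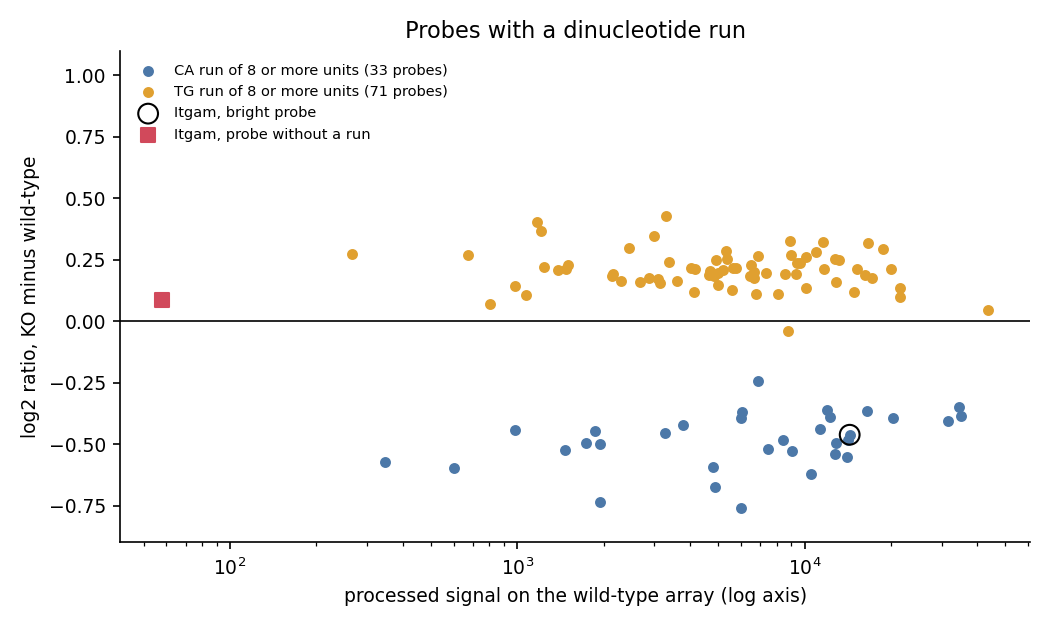
Log2 ratio (KO minus wild-type) against the processed signal on the wild-type array (log axis) for probes with at least 8 CA units (blue, 33 probes) or TG units (orange, 71 probes), each point being 1 probe. The ring marks the bright *Itgam* probe, at -0.46 among the CA probes, and the square marks the *Itgam* probe without a run, at 0.09.

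*Csf1r*, the receptor on which most tissue macrophages and osteoclasts depend, was measured by all 3 of its probes. The probe at base 1841 of the transcript had 305 ± 31.1 in wild-type and 311 ± 31.6 in *Sox21* KO, a log2 ratio of -0.01. The probe at base 2871 had 180 ± 18.7 and 332 ± 33.5, a log2 ratio of 0.84, or 1.80-fold. The probe at base 3806, the brightest and the one used in the counts above, had 8796 ± 880 and 11367 ± 1137, a log2 ratio of 0.33. The error of each *Csf1r* ratio was between 0.20 and 0.21, so the first and second probes stood further apart than their errors. The *Csf1r* probes spanned 0.86 on the log2 scale, and of 494 genes with 3 measured probes, 5.67% spanned as much or more, the median being 0.26. A single fold change for *Csf1r* therefore depends on the probe chosen.

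*Cd14*, the lipopolysaccharide co-receptor, had 54.0 ± 7.58 in wild-type and 74.9 ± 8.85 in *Sox21* KO, a log2 ratio of 0.43 with an error of 0.26. *Cd68*, the lysosomal glycoprotein widely used to stain macrophages, had 126 ± 13.5 and 182 ± 18.8. By the brightest probe of each gene, its log2 ratio of 0.50, or 1.41-fold, was the highest among the 8 measured genes. This ratio was 2.31 times its scanner error of 0.22. *Lyz2*, the lysozyme of macrophages and neutrophils, had 21.1 ± 5.30, not well above background, and 24.5 ± 4.97. The *Lyz2* signal on the KO array was 1.12-fold the same wild-type limit, which is likewise not a minimum difference. Its close paralogue *Lyz1*, which may share RNA with this probe or its own, gave 240 and 263, a log2 ratio of 0.09. The *Cd68* probe was matched by symbol and not by accession, and whether all of its bases lie in exons was not checked, so its ratio may not be that of the mature mRNA alone.

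*Mrc1*, the mannose receptor of tissue macrophages, had 265 ± 27.2 in wild-type and 356 ± 36.0 in *Sox21* KO, a log2 ratio of 0.38 with an error of 0.21. *C1qa* had 180 ± 18.7 and 240 ± 24.4, a log2 ratio of 0.37. *C1qb* had 213 ± 22.0 and 233 ± 23.9, a log2 ratio of 0.09 that was below its error of 0.21. The third chain, *C1qc*, which lies between the other two on chromosome 4, had 495 and 580, a log2 ratio of 0.19. All C1q chains were therefore higher on the KO array, and of these *C1qa* alone exceeded its error. The chains assemble into 1 protein, and the ratios of *C1qa* and *C1qb* differed by less than their combined errors.

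**Figure D3:**
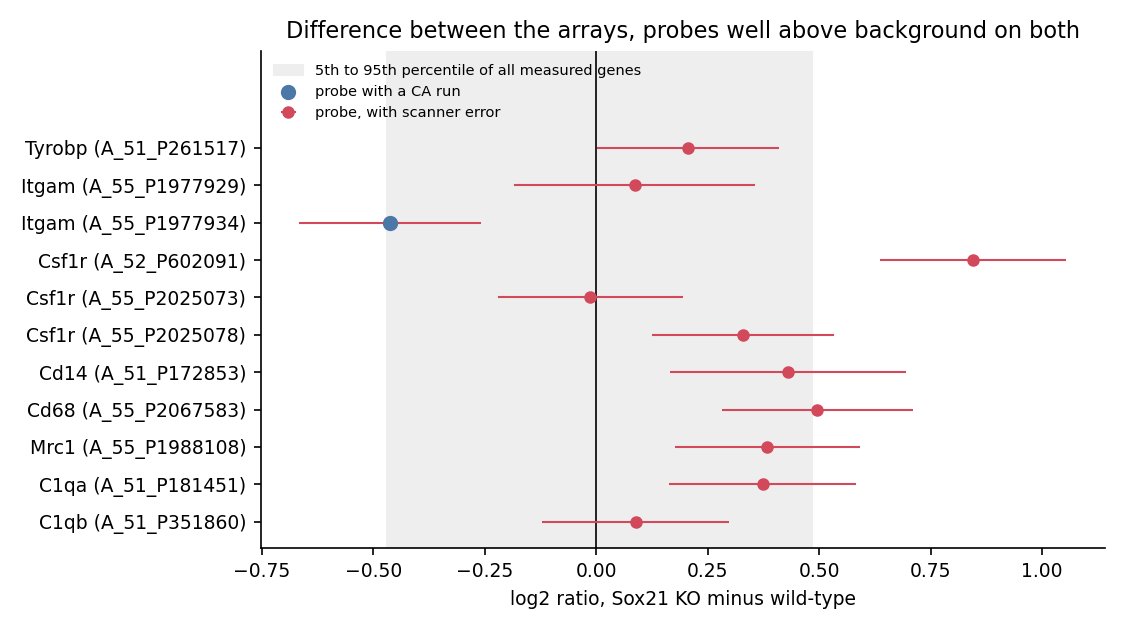
Log2 ratio (KO minus wild-type) of the 11 probes measured on both arrays, with bars for the scanner error and a grey band from the 5th to the 95th percentile of all measured genes, -0.47 to 0.48. Of these probes, 9 lie above 0, the *Itgam* probe with a CA run (blue) lies at -0.46, and the *Csf1r* probe at base 2871 and the *Cd68* probe lie above the band.

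Other genes of macrophages were mixed in direction. Of 28 such genes, 18 were measured on both arrays, 8 of them higher and 10 lower in the KO, with a median log2 ratio of -0.08, and 4 were higher and 6 lower by more than their errors. With both arrays centred on the median spot, this median was 0.01, against 0.11 over all genes. *Lyve1*, a receptor of perivascular macrophages and lymphatic vessels, was the highest at 0.66, and *Maf*, a transcription factor also active outside macrophages, was the lowest at -0.65, its dimmer probe giving -0.13. *Aif1*, which encodes IBA1, had -0.43 and the fractalkine receptor gene *Cx3cr1* had -0.34. *Adgre1*, which encodes F4/80, had 113 and 114, a log2 ratio of -0.03, with -0.65 at its dimmer probe. *Fcgr1*, an antibody receptor, and the scavenger receptor *Msr1* were well above background on the KO array alone. *Fcgr1*, with 18.4 ± 5.90 in wild-type and 39.3 ± 6.32 in *Sox21* KO, was 1.79-fold the wild-type limit, which is not a minimum. For *Msr1*, with 22.5 ± 6.14 in wild-type and 32.5 ± 6.22 in *Sox21* KO, the fold was 1.41, also not a minimum. Its limit was its own unmarked wild-type signal, which lay above the lowest one marked. *Fcgr3* was also marked on the KO array alone and gets no fold. The remaining 7 genes, among them *Cd163*, *Timd4* and *Ccr2*, were not marked in either sample. *Aif1* and *Cx3cr1* were chosen after their values were seen.

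Genes shared by most leukocytes were closer to the set. Of 25, 19 were measured, 12 higher and 7 lower, with a median log2 ratio of 0.10, and 8 were higher and 1 lower by more than the error. *Itga4*, an integrin chain of leukocytes and of some mesenchyme, was the highest at 0.84. *Itgal*, the alpha chain of LFA-1, was the lowest at -0.83, although its other probe gave 0.12. *Spi1*, which encodes PU.1, was dim, with 29.1 ± 5.82 and 48.6 ± 6.60, and had a log2 ratio of 0.70. The macrophage and shared leukocyte lists together had 53 genes outside the set, of which 37 were measured, 20 higher and 17 lower, with a median of 0.03. Related genes were thus split about evenly between higher and lower.

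The counts for partners of the 10 genes are read against the 52.4% of all genes that were higher with the same scaling. Among ligands and relatives of the CSF1 receptor, 7 of 10 measured genes were higher, with a median log2 ratio of 0.17, and 5 were higher and 2 lower by more than their errors. *Csf1* had 723 and 964, a log2 ratio of 0.37, its other 2 probes giving up to 0.68, and *Il34* had 0.30. *Kit*, the receptor of mast cells and melanocytes, was the highest at 0.57, and *Csf2rb*, the shared chain of the GM-CSF receptor, was the lowest at -0.71, its other probe giving 0.23. The ligands of the receptor were therefore both higher on the KO array.

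Among genes that signal with DAP12, 6 of 8 measured were higher, 2 of them by more than their errors, with a median of 0.11, *Trem2* having 0.07, *Fcer1g* 0.15, the phospholipase gene *Plcg2* 0.32 and *Trem1* -0.16. Among co-receptors of CD14 and the proteins that signal from them, 7 of 8 were higher, 2 of them by more than their errors, with a median of 0.19. *Tlr4*, which signals for lipopolysaccharide, was dim at 29.3 and 58.5 and had a log2 ratio of 0.93, whereas *Ly96*, its binding partner, had 290 and 299, a ratio of 0.00. *Irak4* was the lowest at -0.02. Integrins of leukocytes and their ligands were higher for 8 of 10 genes, with a median of 0.11, and 3 were higher and 1 lower by more than their errors. *Itgb2*, the beta chain that pairs with the *Itgam* product, had 161 and 179, a log2 ratio of 0.11. *Fermt3*, the kindlin of blood cells, was the highest at 0.94, with dim signals of 28.5 and 56.4, and *Itgal* was again the lowest at -0.83.

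Of 11 other complement genes, all 9 measured were higher (0 lower), with a median of 0.14. *C4b* was the highest at 0.58 and *C3* the lowest at 0.05, and 3 exceeded their errors. These values are of the brightest probe, and the dimmer probes of *C3* and *C1ra* reached -0.11 and -0.06. Lysosomal genes had a median of 0.09, with 9 of 13 higher, 4 of them by more than their errors and 1 lower by more, the protease gene *Lgmn* highest at 0.35 and the cholesterol carrier *Npc2* lowest at -0.41. Among lectins, 4 of 5 measured were higher, 1 of them by more than its error, with *Lgals3*, galectin-3, at 0.66 and *Mrc2*, a relative of *Mrc1*, at -0.04. The *Mrc2* probes ran from -0.63 to 0.05. No list other than that of osteoclasts held a gene at least 2-fold apart.

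**Figure D4:**
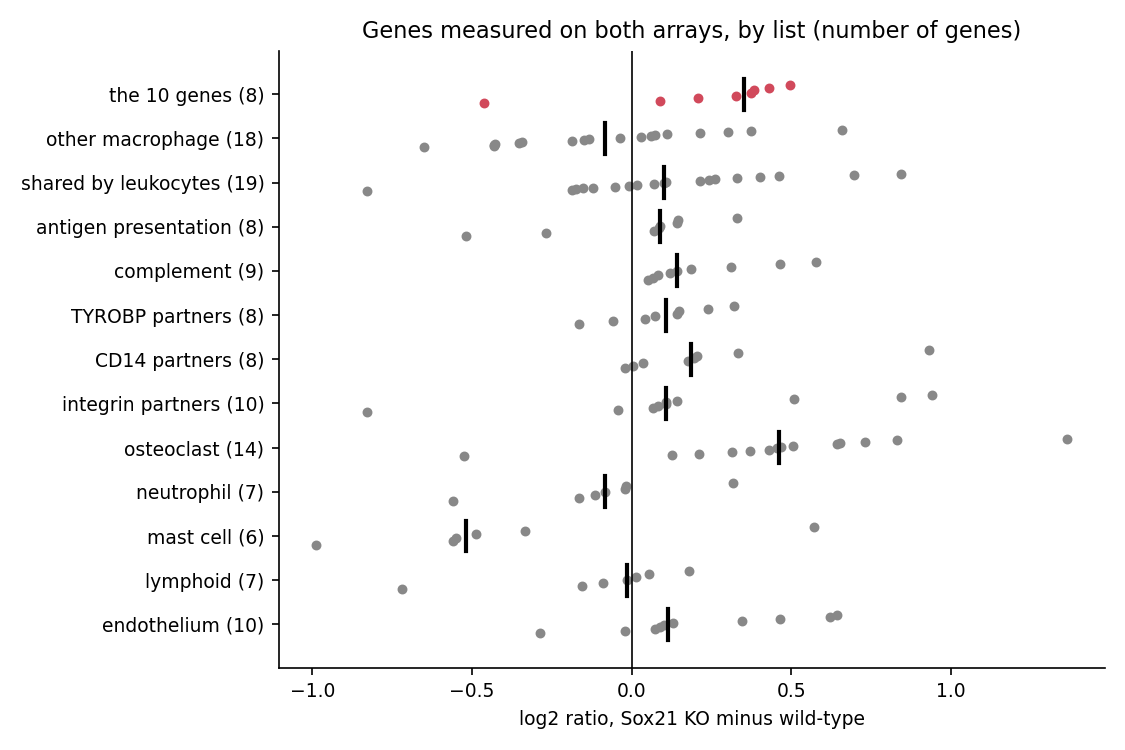
Log2 ratio (KO minus wild-type) of each gene measured on both arrays, by list, with the number of genes in brackets and a black bar for the median. The 10 genes (red) have a median of 0.35, with *Itgam* at -0.46 by its bright probe, the osteoclast list has 0.46, other macrophage genes have -0.08 and the mast cell list has -0.52.

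Osteoclasts come from the same precursors and express *Csf1r*, *Tyrobp* and *Cd68* as well. All 14 osteoclast genes were measured on both arrays, 13 higher and 1 lower, with a median log2 ratio of 0.46 and a summed normalized signal of 825 in wild-type and 1004 in *Sox21* KO. By more than the error, 12 were higher. Summed in the same way, the 10 genes had 99.8 in wild-type and 95.8 in *Sox21* KO, or 46.3 and 57.1 without probes holding a run. The 28 other macrophage genes had 74.1 and 62.5. *Calcr*, the calcitonin receptor, went from 128 to 339, a log2 ratio of 1.36, the protease *Mmp9* had 0.83, and *Ctsk*, cathepsin K, had 0.47. *Ckb*, a creatine kinase that other tissues also express, was the exception at -0.52. The part of osteoclasts in the higher signals of *Csf1r*, *Tyrobp* and *Cd68* was not tested. *Mmp9* and *Ctsk* were chosen after their values were seen.

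Among the remaining leukocytes, mast cell genes were lower. Of 11 listed, 6 were measured, and 5 were lower by more than their errors while *Kit* was higher, with a median log2 ratio of -0.52. *Mcpt4*, a protease of connective tissue mast cells, went from 242 ± 24.8 to 126 ± 13.6, a log2 ratio of -0.99. The proteases *Tpsb2*, *Cma1* and *Cpa3* had -0.49, -0.55 and -0.33, and *Hdc*, which makes histamine, had -0.56. *Ms4a2* and *Fcer1a*, chains of the IgE receptor, were not marked in either sample. Apart from *Kit*, the measured mast cell genes were thus lower in the *Sox21* KO sample, whereas 7 of the 8 measured genes of the set were higher.

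Of 7 neutrophil genes measured, 1 was higher, and their median was -0.08, or 0.01 with both arrays centred on the median spot, ranging from *Mpo* at -0.56 to *Lcn2* at 0.32. Of 20 genes of T, B and NK cells, 13 were not marked in either sample, among them *Cd3d*, *Cd3g* and *Ms4a1*, and the 7 measured had a median of -0.01, from *Cd79b* at -0.72 to *Cd4* at 0.18. For antigen presentation, 8 of 14 genes were measured, with a median of 0.09, *Irf8* highest at 0.33 and *Cd74* lowest at -0.52. *Cd86* was marked on the wild-type array alone, where it was 1.14-fold the lowest KO signal so marked. *Zbtb46* was marked on the KO array alone, at 1.06-fold its own wild-type signal, which was again above the lowest marked. Neither fold is a minimum. *Cd207*, langerin of the Langerhans cells of skin and oral mucosa, was not marked in either sample. The lymphoid list was thus mixed, since *Cd3e*, a chain of the T cell receptor complex, had 1931 and 2062 while most of the list was not marked. *Cd3e* was chosen after its values were seen.

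Genes of blood vessels, blood and the tooth layers were read beside the set. Endothelial genes had a median log2 ratio of 0.11, with 8 of 10 higher, from *Emcn* at -0.29 to *Tek* at 0.64, and a summed normalized signal of 68.7 and 71.6. Erythroid genes had -0.18, with 4 of 5 measured genes lower, from *Hba-a1* at -0.36 to *Tfrc* at 0.21, and sums of 245 and 202. Epithelium had a median of 0.20, from *Esrp1* at -0.21, whose other probe gave 0.76, to *Krt18* at 0.92, and mesenchyme had 0.22, from *Col3a1* at -0.12 to *Vim* at 0.29. The part of these tissues in the results was not tested.

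PU.1 binds purine-rich sites, and short letters of that kind were searched on both strands in windows from 250 bases before to 50 after gene starts (RefSeq, GRCm38.p6). Of the 10 genes, 6 had a window in the table and *Ptprc* had 2. GAGGAA was found in the windows of 5 genes, *Ptprc*, *Mrc1*, *C1qb*, *Itgam* and *Cd68*, and in 28.3% of all 32851 windows. GGAAGT, which overlaps it by 4 letters, was also found for 5 genes, *Lyz2* among them but not *Itgam*, and in 23.8% of windows. The joined letters GAGGAAGT were in none of the 7 windows (0) and in 3.20% of all. For the genes whose GAGGAA lies on the strand of the gene, 30 bases around the match are given, with the letters in capitals.
*Ptprc* (chr1:138175446-138175475, - strand): tgttttcctttaGAGGAAaattgagacgaa
*C1qb* (chr4:136886213-136886242, - strand): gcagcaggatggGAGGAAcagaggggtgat
*Itgam* (chr7:128062544-128062573, + strand): tgttttctcccgGAGGAAggctacagaggg
*Cd68* (chr11:69666378-69666407, - strand): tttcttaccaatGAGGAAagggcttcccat
A match describes these letters and is not a bound site, and the letters were chosen after the values had been seen.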

How the data were processed

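Per the labels, RNA was labelled with Cy3 and scanned on 1-colour arrays, and the authors' software, Agilent Feature Extraction 10.7.3.1, wrote for each spot a processed signal intensity with background removed within the array. The authors also deposited a table on a linear ratio scale, in which each signal is divided by 1 number per array, 268 and 276, with medians of 0.0756 and 0.0707. The deposited flags (other) mark spots as above background, saturated (0 spots) or outliers.

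Here 267 outlier spots were left out, spots of a probe were averaged on the log2 scale, and 55679 probes remained. RefSeq (GRCm38.p6, names only) named 26292 of them through an accession, 2049 through the current symbol and 355 through a former one, while 26983 kept the name in the file. Each gene took its brightest probe on both arrays. The genes and lists were chosen with earlier results of these data known. Named were all probes of the 10 genes and *Sox21*, chosen partners, and in each list the highest and lowest gene, any gene 2-fold apart and any gene on 1 array alone. The steps were tested on simulated data. Python 3.11.15, numpy 2.4.6, pandas 2.3.3, matplotlib 3.10.9, R 4.3.3 and limma 3.58.1 were used.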

Additional observations from a re-analysis of the deposited data

How the results depend on the processing

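No paired analysis was possible because each genotype has 1 array. The 10 alternatives chosen at the start changed the scaling, the background correction, the filter, the probe choice, the outlier flags, the source table and the threshold, and 2 were chosen after seeing the data. Across them, the median log2 ratio of the 10 genes lay between 0.26 and 0.45, and each of the 77 values of single probes moved by less than its scanner error. Leaving out probes with a CA or TG run took the count of lower genes from 1 to 0. With the mean over all probes of a gene, *Sox21* had -1.30. Without the requirement on background, the medians of the DAP12 partners and of the lectins changed sign, to -0.0086 and -0.086, as did that for antigen presentation, to -0.073, since more dim genes entered. There the median for the CSF1 receptor list was 0.017 and that of lymphoid genes -0.16. The background correction took the mast cell median to -0.31 and that of the CD14 list to 0.076. Without the requirement on background, 508 of 21243 genes were at least 2-fold higher and 695 lower, against 102 and 92 of 13804. The mark by pixels gave 293 and 321 of 15924, and the background correction gave 46 and 40 of 13804. For *Ptprc* and *Lyz2*, with signals near 20, the arrays give neither a ratio nor a minimum fold.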
